A study of Mus musculus with 23 samples.

Results

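The miR-15/16 family is a group of microRNAs (miRNAs) with 1 shared seed, the stretch from base 2 to base 8 of the mature strand through which a miRNA recognises its target mRNAs. Its 6 members described here are miR-15a-5p, miR-15b-5p, miR-16-5p, miR-195a-5p, miR-497a-5p and miR-322-5p. They were taken from the deposited tables by name, and 6 of 6 were found among the 1915 miRNA names that every table lists. The tables hold read counts from small RNA sequencing of 23 libraries of dissected brain tissue, all from C57BL/6 mice. Of these libraries 12 were wild type and 11 carried a knockout of Cdr1as, a neuronal circular RNA best known for its many binding sites for miR-7. Cerebellum, cortex, hippocampus and olfactory bulb gave 3 libraries per genotype each, except that knockout hippocampus gave 2, numbered 2 and 3. The labels give no treatment or age. They leave unsaid whether the libraries of 1 group, or the regions, are from different mice, so a p-value here reflects only the spread between libraries.

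The family is known for restraining cell proliferation and survival. Members bind the mRNAs of D-type and E-type cyclins, of cell cycle kinases and of the survival factor Bcl2, and several of them rise as cells leave the cell cycle. A primary transcript that holds 2 neighbouring hairpins is cut by Drosha and Dicer, and from each hairpin usually 1 strand, the guide, is loaded into Argonaute while the other is degraded. For this family the guide is usually the 5p strand.

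The mature sequences are shown first, from RefSeq, because the strands compared here read alike at their 5′ end and differ further on. The seed is in capitals.
miR-15a-5p: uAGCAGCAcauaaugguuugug
miR-15b-5p: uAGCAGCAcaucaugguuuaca
miR-16-5p: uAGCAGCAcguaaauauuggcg
miR-195a-5p: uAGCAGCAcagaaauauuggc
miR-497a-5p: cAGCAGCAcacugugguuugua
miR-322-5p: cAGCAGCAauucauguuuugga
All 6 hold AGCAGCA at these positions, and they differ in the first base and in the 3′ part. Counted from the 5′ end without gaps, miR-16-5p and miR-195a-5p are identical at 19 of 21 positions and miR-15a-5p and miR-15b-5p at 18 of 22. The most distant pairs were miR-16-5p with miR-497a-5p, identical at 11 of 22 positions, and miR-195a-5p with miR-322-5p, at 11 of 21. How reads that match more than 1 of these strands were assigned is not given in the sources used here, so the split between the closest strands is uncertain to that extent.

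The members lie in 4 clusters. On the GRCm38.p6 assembly, miR-15a-5p is at chr14:61632075-61632096 on the minus strand, 80 bases from the copy of miR-16-5p at chr14:61631936-61631957, and both lie in an intron of Dleu2, a long non-coding RNA gene. MiR-15b-5p is at chr3:69009775-69009796 on the plus strand, 83 bases from the other copy of miR-16-5p at chr3:69009918-69009939, and both lie in an intron of Smc4, which encodes a condensin subunit needed for chromosome compaction. The 2 copies of miR-16-5p have the same mature sequence, so its count is a sum over both loci. MiR-497a-5p (chr11:70234730-70234751, plus strand) and miR-195a-5p (chr11:70235062-70235082, plus strand) are 271 bases apart and lie in no other gene of the annotation used. MiR-322-5p, the mouse counterpart of human miR-424-5p, is at chrX:53054306-53054327 on the minus strand, 219 bases from its neighbour miR-503. The deposited tables carry no coordinates, and the submitters' processing notes name another assembly, so these positions serve only to show which members are neighbours.

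The libraries held 2328929 to 13070794 counts, and each member had a count in 23 of 23 libraries. The scarcest member, miR-15b-5p, had 38 to 307 reads per library, and the most abundant, miR-16-5p, had 24714 to 146804. Olfactory bulb markers (8 miRNAs of the miR-183 cluster and miR-200 family) summed to between 271210 and 300812 CPM, that is, counts scaled to a common library total, in wild type olfactory bulb. They summed to 3676 to 6803 CPM in wild type cortex and to 141 to 445 CPM in knockout cortex, so the 2 cortex groups differed in these markers. Cdr1as itself was not analysed here. In dissected tissue, fewer cells of a type and less RNA per cell cannot be told apart.

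The family took 1.54% to 1.83% of all miRNA reads in the 6 cerebellum libraries. It took 1.08% to 1.5045% in cortex, 0.951% to 1.04% in hippocampus and 0.974% to 1.15% in olfactory bulb, so the cerebellum libraries lay above every other library. MiR-16-5p was the bulk of it everywhere, with 75.5% to 79.1% of the family's reads in cerebellum and 87.8% to 92.4% elsewhere. The chromosome 11 pair made up the difference. MiR-497a-5p held 9.69% to 13.8% and miR-195a-5p 7.95% to 8.86% of the family in cerebellum, against at most 5.29% and 2.85% in any library of the other regions. MiR-322-5p held 0.827% to 0.968% of the family in cortex and 0.108% to 0.140% in cerebellum. Ranked by mean CPM among the 669 miRNAs kept for testing, miR-16-5p stood at 21, miR-497a-5p at 80, miR-195a-5p at 97, miR-15a-5p at 125, miR-322-5p at 249 and miR-15b-5p at 327. Levels of different miRNAs also depend on how well each sequence is ligated during library preparation, so the order between members is a property of these libraries.

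MiR-195a-5p and miR-497a-5p, a pair known for holding back cyclins and cell cycle kinases, stood out in the cerebellum. In wild type cerebellum miR-195a-5p reached 1539.8, 1937 and 1790.3 CPM, scaled by the trimmed mean of M values (TMM), a factor per library that aligns the bulk of the miRNAs. In wild type cortex it reached 161, 138 and 140.2 CPM, in hippocampus 172, 183 and 196 CPM, and in olfactory bulb 393, 405 and 356 CPM. Every cerebellum library was above every library of the other regions, and with TMM olfactory bulb was above cortex and hippocampus without overlap. With library size alone, wild type olfactory bulb (249 to 295 CPM) overlapped hippocampus (225 to 277 CPM).

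In edgeR's quasi-likelihood F test over all 669 miRNAs, with Benjamini-Hochberg adjustment, miR-195a-5p was 12.0-fold higher in wild type cerebellum than in cortex (log2 difference 3.58, SE 0.12, adjusted p = 4.6e-15). The difference was 3.26 against hippocampus (SE 0.12) and 2.19 against olfactory bulb (SE 0.12), both called. By size, the cerebellum to cortex difference ranked 24 of 669, and 8 from the top among miRNAs higher in cerebellum. Between knockout cerebellum and cortex the difference was 3.51 (SE 0.12). The knockout levels were 1622, 1709 and 1726 CPM in cerebellum against 147, 145 and 151 CPM in cortex. Both genotypes entered the same fit, so the wild type and knockout results share the filter, the scaling and the estimate of spread.

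MiR-497a-5p, encoded just upstream in the same cluster, had 2501, 2808 and 1976 CPM in wild type cerebellum. It had 264, 225 and 350 CPM in cortex (349.8 in replicate 3), 420.4, 356 and 347 CPM in hippocampus, and 592, 426 and 377 CPM in olfactory bulb. Cerebellum was again above all others, and hippocampus overlapped both cortex and olfactory bulb. With TMM cortex lay below olfactory bulb without overlap (log2 difference -0.74, SE 0.21, edgeR adjusted p = 0.0047). With library size alone cortex and olfactory bulb overlapped (294 to 473 against 263 to 422 CPM). The cerebellum to cortex difference was 3.12 in wild type (SE 0.22, 8.68-fold, edgeR adjusted p = 1.7e-10) and 3.56 in knockout (SE 0.23). Its spread was wide in several groups, with a coefficient of variation of 17.3% in wild type cerebellum, 22.8% in wild type cortex and 24.2% in wild type olfactory bulb (n = 3 each), but 2.70% in knockout cerebellum.

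MiR-322-5p, the chromosome X member, ran the other way. It had 78.9, 68.6 and 92.2 CPM in wild type cortex, 64.6, 57.1 and 65.3 CPM in hippocampus, 33.8, 37.1 and 38.2 CPM in olfactory bulb, and 26.4, 24.2 and 22.0 CPM in cerebellum. With TMM the 4 regions stood in that order without any overlap between their wild type libraries. With library size alone cortex overlapped hippocampus (89.4 to 125 against 75.2 to 92.3 CPM), and olfactory bulb overlapped cerebellum (24.1 to 27.1 against 16.7 to 24.7 CPM). It was 3.30-fold lower in cerebellum than in cortex (log2 difference -1.72, SE 0.13, edgeR adjusted p = 2.7e-10) and 2.20-fold higher in cortex than in olfactory bulb (1.14, SE 0.12, adjusted p = 2.3e-07). The knockout libraries gave -1.53 (SE 0.13) and 0.97 (SE 0.13) for the same pairs.

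MiR-16-5p, the family's main strand, had 14397, 16584 and 16124 CPM in wild type cerebellum and 13891, 14432 and 13871 CPM in olfactory bulb. It had 7377, 7611 and 10245 CPM in cortex and 7031, 6556 and 6335 CPM in hippocampus. Cerebellum and olfactory bulb lay above cortex and hippocampus without overlap, and the highest cortex library, replicate 3, was apart from the other two. The test gave cerebellum 1.87-fold above cortex (log2 difference 0.90, SE 0.11, edgeR adjusted p = 4.0e-07) and 2.36-fold above hippocampus (1.24, SE 0.11). Between cerebellum and olfactory bulb the outcome depended on the scaling. With TMM the pair was not called (0.16, SE 0.11, edgeR adjusted p = 0.22), but it was with library size alone (0.37, adjusted p = 0.0038), where the libraries did not overlap, and with upper quartile scaling (0.46, adjusted p = 0.0061). With library size alone the wild type cortex libraries (9922 to 13840 CPM) overlapped both of these regions.

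MiR-15a-5p and miR-15b-5p, each transcribed with a copy of miR-16, followed a similar order at lower levels. Mean miR-15a-5p was 475 ± 44.0 CPM in wild type olfactory bulb, 446 ± 32.9 in cerebellum, 266 ± 28.6 in cortex and 246 ± 13.1 in hippocampus (SD, n = 3 each). Olfactory bulb and cerebellum were not called different (-0.09 for cerebellum minus olfactory bulb, edgeR adjusted p = 0.51), nor were cortex and hippocampus (0.11, adjusted p = 0.53). Mean miR-15b-5p was 32.0 ± 1.60 CPM in olfactory bulb, 25.0 ± 1.70 in cerebellum, 12.98 ± 1.92 in hippocampus and 11.5 ± 0.567 in cortex. With TMM it was the member with the largest gap between cortex and olfactory bulb in wild type, at 2.79-fold (log2 difference -1.48, SE 0.15, edgeR adjusted p = 5.7e-08), while with library size alone that was miR-322-5p. Its smaller gap between cerebellum and olfactory bulb (-0.36, SE 0.14, adjusted p = 0.034) was no longer called when cerebellum wild type 1 or 2, hippocampus knockout 3 or olfactory bulb wild type 1 or 3 was left out, at adjusted p from 0.077 to 0.092.

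**Figure D1:**
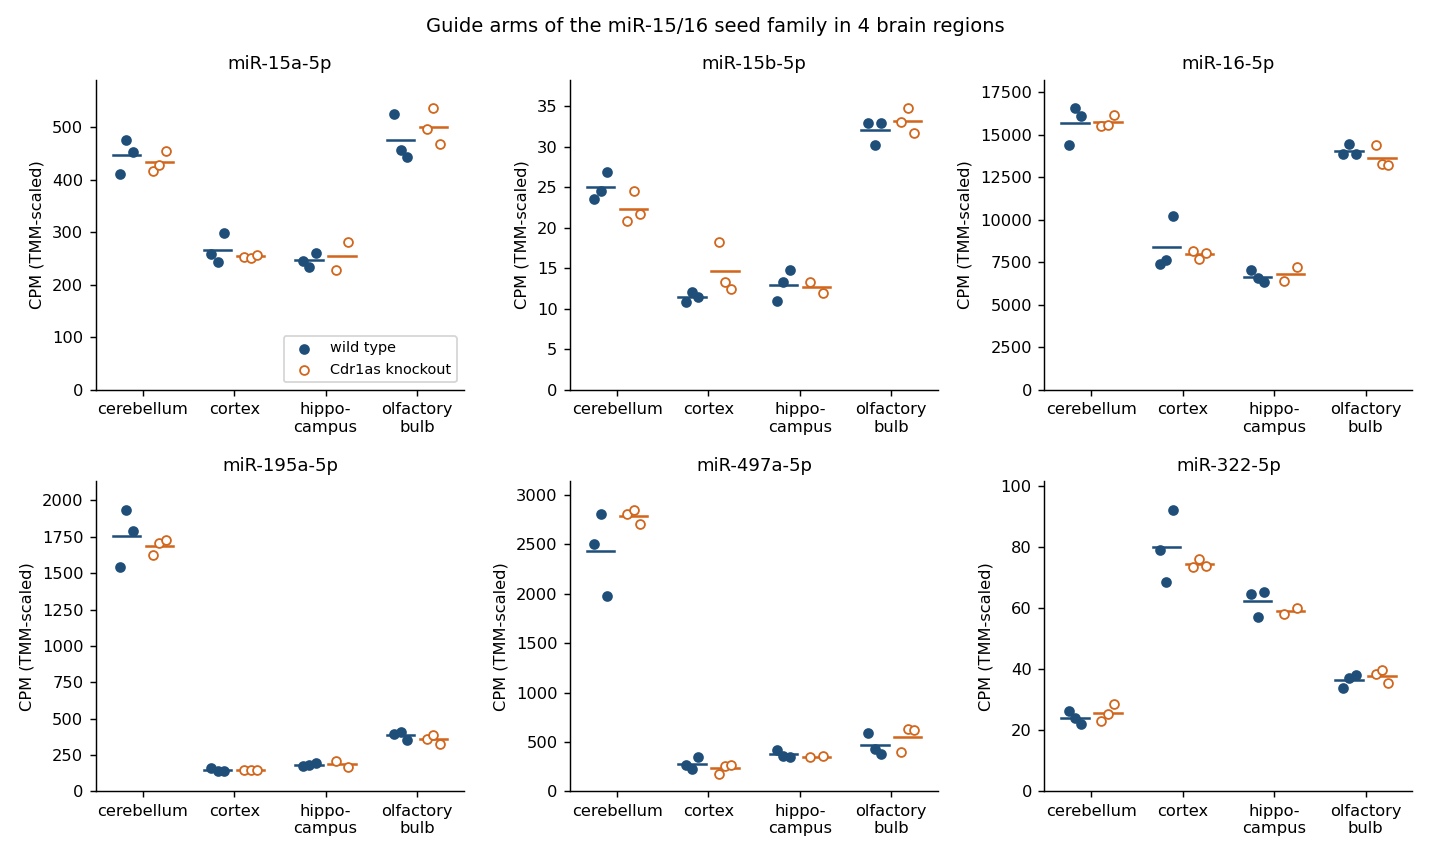
Normalised level (TMM-scaled CPM, linear axis from 0) of each member in each library, by region; filled circles are wild type and open circles Cdr1as knockout, and bars are group means. MiR-195a-5p and miR-497a-5p are highest in cerebellum, miR-322-5p is lowest there, and the open and filled circles of a region overlap except for miR-15b-5p in cortex.

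Counted over the wild type region pairs, 6 of 6 members differed between cerebellum and cortex, 5 higher in cerebellum and 1 lower, where 62.6% of all 669 miRNAs were called (31.1% higher and 31.5% lower). Between cerebellum and hippocampus it was again 6 of 6 (5 higher, 1 lower), beside 57.7% of all miRNAs (29.4% higher and 28.3% lower). With library size alone miR-15a-5p (0.06) and miR-16-5p (0.21) were not called between cerebellum and cortex. On that scale miR-15a-5p (0.16) and miR-15b-5p (0.23) were not called between cerebellum and hippocampus. Between cerebellum and olfactory bulb 4 of 6 were called, miR-195a-5p and miR-497a-5p higher and miR-15b-5p and miR-322-5p lower, beside 55.5% (29.1% higher and 26.3% lower). Both lower calls were lost with upper quartile scaling (miR-15b-5p at -0.05, miR-322-5p at -0.29) and with library size alone (-0.14 and -0.36). Between cortex and olfactory bulb 6 of 6 were called, with only miR-322-5p higher in cortex, beside 53.2% (27.1% higher and 26.2% lower). Between hippocampus and olfactory bulb 5 of 6 were called, miR-322-5p higher, miR-15a-5p, miR-15b-5p, miR-16-5p and miR-195a-5p lower, and miR-497a-5p not called, beside 53.4% (26.6% higher and 26.8% lower). Most miRNAs differ between these regions, so the counts alone do not set the family apart. The median log2 difference of the 6 members between cerebellum and cortex was 1.01, against 0.02 for all miRNAs tested. Without scaling, 95 miRNAs were called higher and 337 lower in cerebellum than in cortex, where TMM gave 208 and 211, and upper quartile scaling gave 285 and 158. Without scaling the split was 84 higher and 355 lower for cerebellum against hippocampus, 251 and 145 for cerebellum against olfactory bulb, 395 and 47 for cortex against olfactory bulb, and 414 and 45 for hippocampus against olfactory bulb. Upper quartile scaling gave 269 and 127 for cerebellum against olfactory bulb and 206 and 139 for hippocampus against olfactory bulb.

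In the knockout libraries the same pairs gave 6, 6, 4, 6 and 6 members called, where 59.8%, 52.9%, 52.8%, 50.7% and 47.1% of all miRNAs were. The directions matched those in wild type for every member called in both. The additional call was miR-497a-5p between hippocampus and olfactory bulb (-0.64, SE 0.23, edgeR adjusted p = 0.028), which was lost without hippocampus knockout 2 or 3 or olfactory bulb knockout 2 or 3.

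Cortex and hippocampus were the closest pair. In wild type 3 of 6 members were called, beside 20% of all miRNAs (11.7% higher and 8.37% lower in cortex). MiR-16-5p (0.34) and miR-322-5p (0.36) were higher and miR-195a-5p (-0.33) lower in cortex, at edgeR adjusted p = 0.029, 0.040 and 0.041. None of these calls held up against the choice of libraries. The count fell to 0 without cortex wild type 3, without hippocampus wild type 2 or without hippocampus wild type 3, and to 1 without hippocampus knockout 3. In knockout libraries 0 of 6 were called by edgeR, DESeq2 or limma-voom, beside 12.7% of all miRNAs by edgeR, and 3 of 6 had an unadjusted p under 0.05.

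The size of the region differences depended on how libraries were scaled, and for 4 members a called direction did too. TMM factors were below 1 in every olfactory bulb and cerebellum library (0.620 to 0.937) and above 1 in every cortex and hippocampus library (1.22 to 1.41). Without them, with counts divided by the library total only, miR-15a-5p was nearly level, at 370 ± 23.5 in wild type cerebellum, 339 ± 33.0 in olfactory bulb, 356 ± 43.6 in cortex and 331 ± 31.3 in hippocampus (SD, n = 3 each). MiR-16-5p then had 12998 ± 692, 10036 ± 432, 11242 ± 2250.4 and 8924 ± 271 in the same order. With TMM the median difference of all miRNAs was 0.02 between wild type cerebellum and cortex and -0.06 between cortex and olfactory bulb. With library size alone it was -0.66 and 0.84. On that scale miR-15a-5p (0.07), miR-16-5p (0.16) and miR-497a-5p (0.17) were slightly above, not below, their olfactory bulb level in wild type cortex, and none of the 3 differences passed the edgeR test. In the same pair 3 members remained called, miR-322-5p higher (2.04) and miR-15b-5p (-0.58) and miR-195a-5p (-0.49) lower in cortex. In knockout, miR-15b-5p went from 0.60 with TMM to -0.0083 between cerebellum and cortex.

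A change of scaling shifts all miRNAs of a pair by nearly the same amount, so a member's distance from the median of all miRNAs stays put by construction and only places it among the others. Between wild type cerebellum and cortex, miR-195a-5p stood 3.56 above that median with TMM, miR-497a-5p 3.10 above, miR-16-5p 0.88 above and miR-322-5p below it (-1.74). The differences themselves, over TMM, DESeq2 size factors, upper quartile scaling and library size alone, were 2.89 to 3.97 for miR-195a-5p, 2.44 to 3.49 for miR-497a-5p and -2.40 to -1.35 for miR-322-5p. For miR-16-5p they ran from 0.21 to 1.28. With library size alone 16 of the 30 member differences called between wild type regions remained called, and 14 of the 28 between knockout regions. Among them were the cerebellum excess of the chromosome 11 pair and the deficit of miR-322-5p against cortex. The separation of miR-195a-5p and miR-497a-5p also held on that scale, at 1356 to 1552 and 1496 to 2344 CPM in the wild type cerebellum libraries against at most 295 and 549 elsewhere in wild type.

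**Figure D2:**
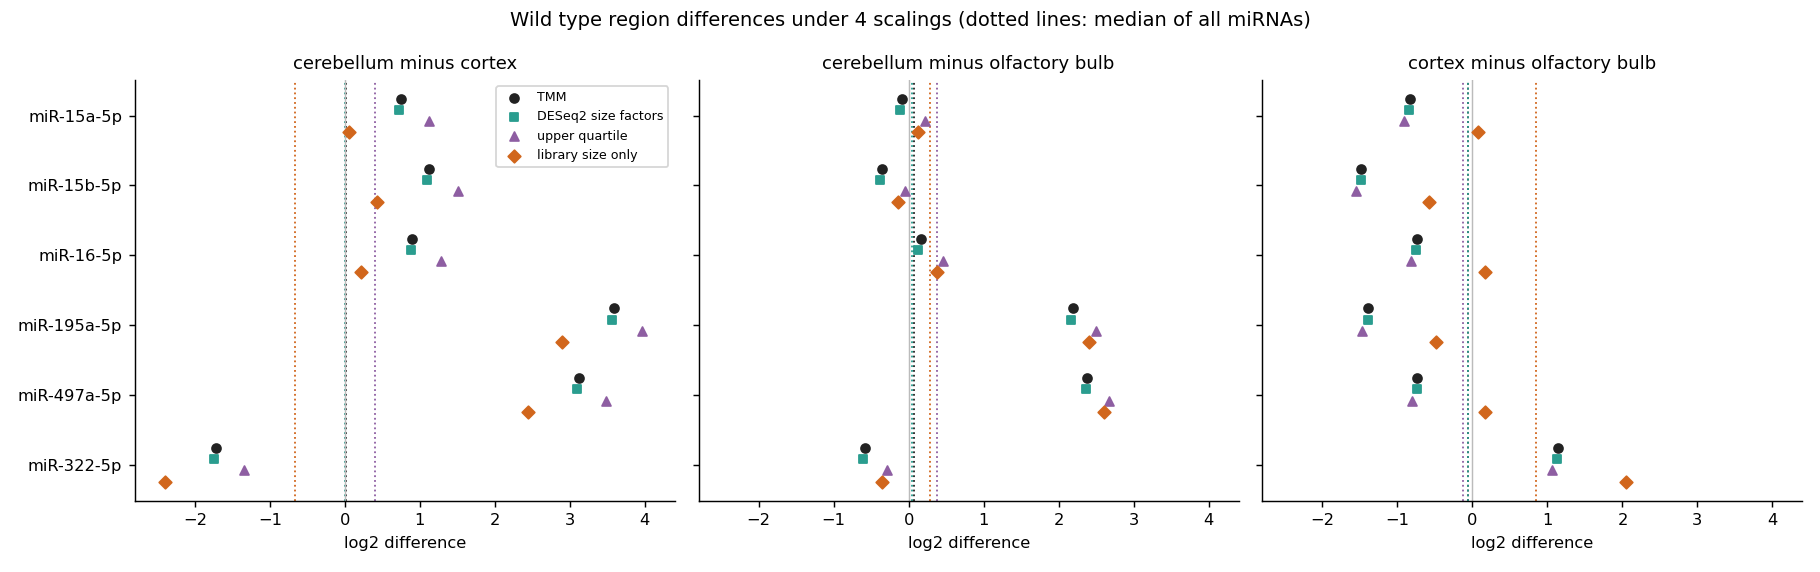
Log2 difference between wild type regions for each member under 4 scalings (symbols), with the median of all miRNAs under each scaling as a dotted line of the same colour. The symbols of a member shift together with the dotted lines, and in cortex minus olfactory bulb the library size symbols of miR-15a-5p, miR-16-5p and miR-497a-5p cross 0.

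Ratios between members within a library do not depend on scaling. The ratio of miR-195a-5p to miR-16-5p lay between -3.26 and -3.10 (log2) in all 6 cerebellum libraries, against -6.19 to -5.51 in cortex, -5.44 to -4.95 in hippocampus and -5.34 to -5.10 in olfactory bulb. Its wild type mean was 6.35-fold higher in cerebellum than in cortex. The ratio of miR-322-5p to miR-16-5p was -9.51 to -9.09 in cerebellum, -8.68 to -8.39 in olfactory bulb, -6.80 to -6.55 in cortex and -6.91 to -6.60 in hippocampus. These values form 3 bands that do not overlap over the 23 libraries, since only cortex and hippocampus run together. The wild type mean was 6.19-fold higher in cortex than in cerebellum.

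The ratios of strands that share a cluster spanned less over the 23 libraries than the ratios of miR-195a-5p and miR-322-5p to miR-16-5p. MiR-15a-5p over miR-16-5p ran from -5.22 to -4.61 over all 23 libraries, a span smaller than 1 log2 unit, and miR-15b-5p over miR-16-5p from -9.79 to -8.57. MiR-497a-5p over miR-195a-5p ran from 0.07 to 1.32. Within that narrow span, wild type means still differed by region, at 0.25 in olfactory bulb, 0.46 in cerebellum, 0.91 in cortex and 1.02 in hippocampus. Cortex and hippocampus lay above cerebellum and olfactory bulb without overlap in wild type, but the knockout libraries did overlap (cerebellum and cortex range over both genotypes, 0.14 to 0.79 and 0.28 to 1.32).

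**Figure D3:**
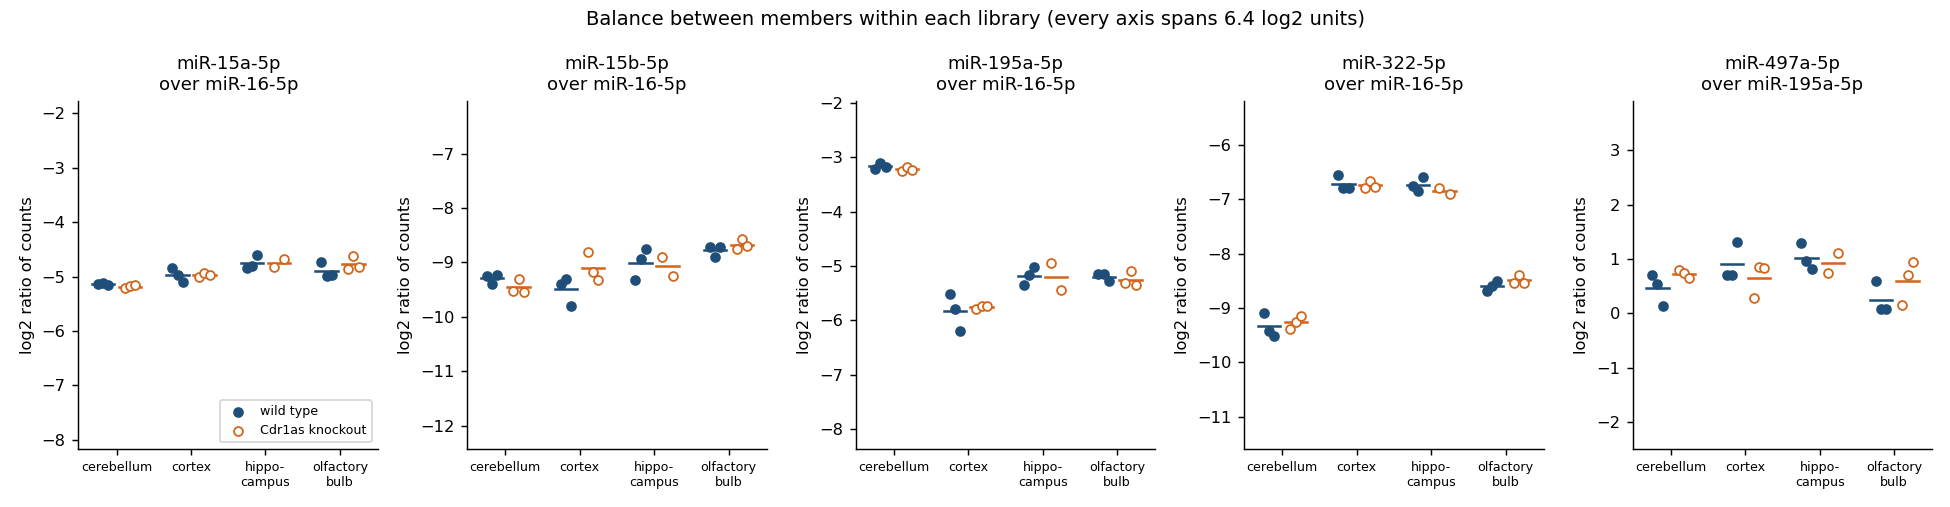
Log2 ratio of read counts between members in each library, by region, with every vertical axis spanning the same range; filled circles are wild type, open circles Cdr1as knockout, bars group means. The ratio of miR-195a-5p to miR-16-5p is highest in cerebellum and that of miR-322-5p to miR-16-5p lowest there, while the ratios within clusters move much less.

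Across the 8 region and genotype groups, the log2 levels of miR-195a-5p and miR-497a-5p ran together (Pearson r = 0.986), as did miR-15a-5p with miR-16-5p (0.956). MiR-15b-5p ran closer to miR-15a-5p, which lies in another cluster (0.968), than to its own neighbour miR-16-5p (0.881). MiR-322-5p ran against the other 5, at r from -0.958 with miR-195a-5p to -0.791 with miR-15b-5p. These are descriptions over 8 group means from 4 regions, which share scaling and, possibly, animals. Among 404 other miRNAs with a mean of at least 10 CPM, the closest in pattern to miR-195a-5p were miR-378a-3p and miR-378a-5p (0.996 each), and to miR-497a-5p miR-30b-5p (0.994) and miR-378c (0.993). MiR-16-5p was most like the neuronal miR-124-3p (0.993) and miR-99b-5p (0.990). MiR-15a-5p was closest to miR-181c-3p (0.991) and miR-181a-5p (0.989), and miR-15b-5p to miR-181a-5p (0.985) and miR-181a-1-3p (0.978). MiR-322-5p was closest to miR-351-5p (0.997), a member of its own chromosome X cluster, and to miR-376b-3p (0.996).

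The question of the study's design is whether loss of Cdr1as changes miRNA levels, and for this family no change passed the test. Averaged over the 4 regions, 0 of 6 members were called by edgeR (quasi-likelihood, Benjamini-Hochberg adjusted), by DESeq2 or by limma-voom, and 0 of 6 had an unadjusted p under 0.05 in edgeR. Of all 669 miRNAs 1.49% were called in that comparison, and 39 had an unadjusted p under 0.05 in edgeR. The mean log2 differences, knockout minus wild type, were 0.00 for miR-15a-5p (95% interval -0.11 to 0.12), -0.02 for miR-16-5p (-0.14 to 0.10), -0.03 for miR-195a-5p (-0.15 to 0.09) and -0.01 for miR-322-5p (-0.14 to 0.13). MiR-15b-5p gave 0.05 (-0.10 to 0.21) and miR-497a-5p 0.03 (-0.19 to 0.25). The bound farthest from 0 was 0.25, so a mean change beyond that size in either direction lay outside the interval of every member.

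Within single regions the intervals were wider and 0 of 6 members were called anywhere. The share of all miRNAs called was 2.09% in cortex, 0.149% in cerebellum, 0.149% in olfactory bulb and 0% in hippocampus, and 0 of 6 members were called in each region by DESeq2 or limma-voom as well. The estimate for miR-16-5p was 0.00 for cerebellum, -0.08 for cortex, 0.04 for hippocampus and -0.04 for olfactory bulb (SE 0.11 to 0.12). For miR-195a-5p it was -0.06, 0.01, 0.02 and -0.10 in the same order. The noisiest member, miR-497a-5p, gave 0.20, -0.24, -0.09 and 0.24 (SE 0.20 to 0.23). A test of whether the genotype difference varied between regions called 0 of 6 members (edgeR, unadjusted p from 0.11 to 0.89, so 0 under 0.05), beside 1.64% of all miRNAs.

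**Figure D4:**
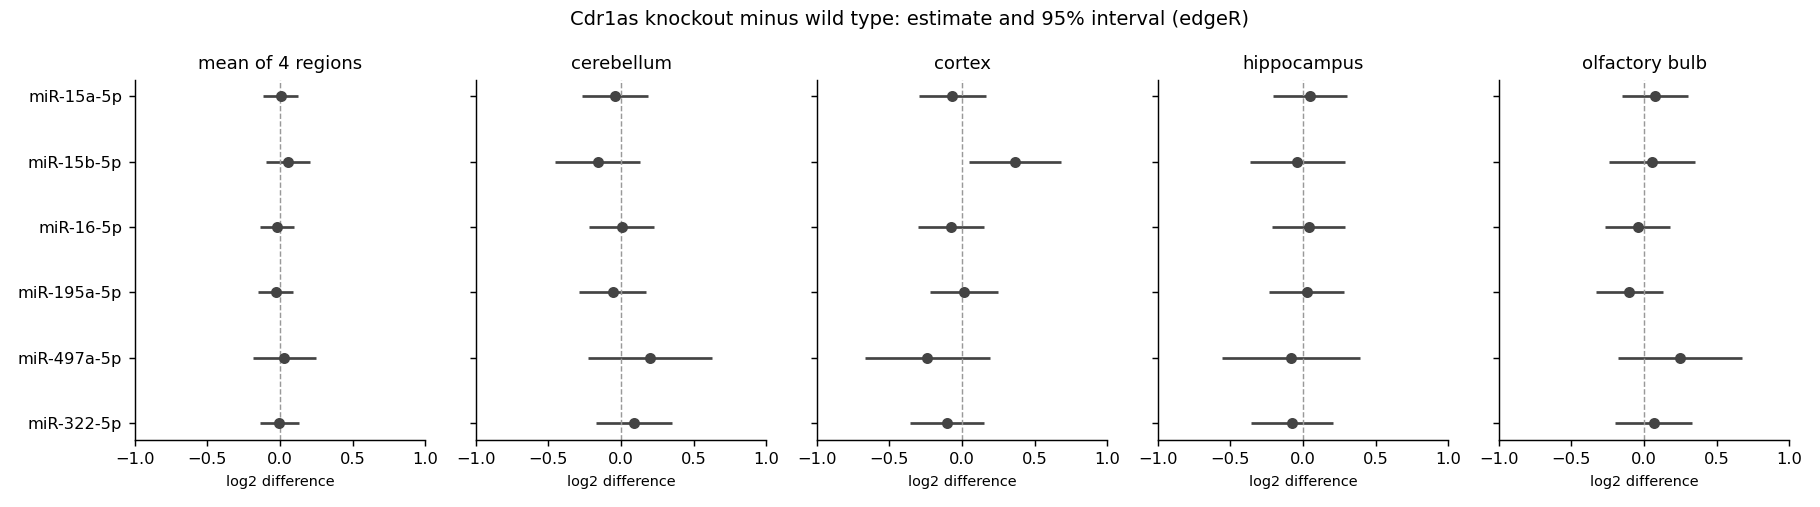
Log2 difference between Cdr1as knockout and wild type for each member, averaged over regions and in each region; points are edgeR estimates and lines their 95% intervals. Each interval includes 0 except that of miR-15b-5p in cortex, whose adjusted p was 0.74.

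MiR-15b-5p in cortex was the only member and region with an unadjusted p under 0.05, beside 31 of the 669 miRNAs in cortex. It had 10.9, 12.0 and 11.5 CPM in wild type and 18.3, 13.3 and 12.4 CPM in knockout cortex, so the 2 groups did not overlap and most of the gap came from knockout replicate 1. The log2 difference was 0.36 (SE 0.15, 95% interval 0.05 to 0.68, unadjusted p = 0.026, adjusted p = 0.74 by edgeR). Groups that do not overlap were found for 7.62% of all miRNAs in cortex, 7.03% in cerebellum, 16.9% in hippocampus and 6.43% in olfactory bulb, and this was the only such case among the 24 member and region combinations. The 3 knockout values rest on 101, 95 and 38 reads. The olfactory bulb markers differ in the same comparison in the other direction. They are lower in knockout than in wild type cortex (8 of 8 called, beside 2.09% of all miRNAs), where miR-15b-5p is higher. MiR-15b-5p is 2.79-fold higher in wild type olfactory bulb than in wild type cortex, and the part of these markers in its difference was not tested.

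No shift in the balance between members was detected by genotype either. Over the 5 ratios between members, the mean of the within-region differences lay between -0.02 and 0.07 on the log2 scale. The two-sided exact permutation of genotype within regions (80000 arrangements) gave p from 0.51 to 0.86, and 0.86 for each after Benjamini-Hochberg adjustment over the 5. Exchanging genotype only within same-numbered pairs (exact, 2048 arrangements) gave p from 0.46 to 0.94. Of these 5 ratios, 3 kept 1 sign over the 3 cerebellum pairs: miR-15a-5p over miR-16-5p (-0.09, -0.06 and -0.00055), miR-195a-5p over miR-16-5p (-0.03, -0.09 and -0.06) and miR-497a-5p over miR-195a-5p (0.09, 0.20 and 0.50). The smallest two-sided exact p that 3 pairs allow is 0.25. Unpaired, miR-15a-5p over miR-16-5p ran from -5.218 to -5.1551 in knockout cerebellum and from -5.1546 to -5.1234 in wild type cerebellum. The 2 groups did not overlap, by a narrow margin. The exact permutation p was 0.1, the smallest that 3 against 3 libraries allow. No other of the 5 ratios reached it in any region.

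The opposite strands were read from the same tables. For miR-16, the 3p strands tell its 2 loci apart: over all 23 libraries the tables held 1034 reads of miR-16-1-3p, from the Dleu2 locus, and 227 of miR-16-2-3p, from the Smc4 locus. The share of miR-16-1-3p ran from 77.3% to 84.4% over the 8 groups. These shares are of degraded strands that may differ in stability and in ligation, and they do not measure how much miR-16-5p each locus gave.

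Of the 7 tested 3p strands of the family, 4 differed between wild type cerebellum and cortex, where 62.6% of all miRNAs did. MiR-195a-3p averaged 106 ± 15.9 CPM in cerebellum and 11.5 ± 1.24 in cortex (log2 difference 3.21, SE 0.20, edgeR adjusted p = 2.5e-11). MiR-497a-3p averaged 28.1 ± 5.89 CPM in cerebellum, from 180 to 309 reads, and 0.671 ± 0.454 CPM in cortex, from 1 to 9 reads (5.28, SE 0.39, adjusted p = 2.6e-10). MiR-322-3p was lower in cerebellum (-1.06, SE 0.18, adjusted p = 2.5e-05) and miR-16-1-3p higher (0.75, SE 0.27, adjusted p = 0.020). In each case the 3p strand moved in the direction of its 5p partner.

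The 5p to 3p ratio differed most between members. MiR-322 had the most even strands, at 0.56 to 1.69 log2 units over all 23 libraries, and miR-16 the least even, at 9.81 to 11.7 with both 3p strands summed. The miR-322 ratio was lower in cerebellum than in cortex or hippocampus without overlap in either genotype, with wild type means 1.58-fold and 1.63-fold lower and knockout means 1.34-fold and 1.36-fold lower. For miR-497a the ratio also varied by region, from 6.13 to 7.01 in cerebellum against 7.62 to 10.6 in cortex and 7.69 to 9.04 in hippocampus, with no overlap over both genotypes. The cortex end of that range rests on the 1 to 9 reads of miR-497a-3p per library there. MiR-195a-5p over its 3p strand was 4.02 to 4.20 in cerebellum and at most 4.001 in any other library. Averaged over regions, 0 of the 6 ratios differed by genotype (exact permutation p from 0.22 to 0.71, adjusted p from 0.60 to 0.71, and from 0.37 to 0.64 within same-numbered pairs), and 0 of the 7 strands on the 3p side were called by edgeR, where the values ran from -0.21 to 0.33.

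**Figure D5:**
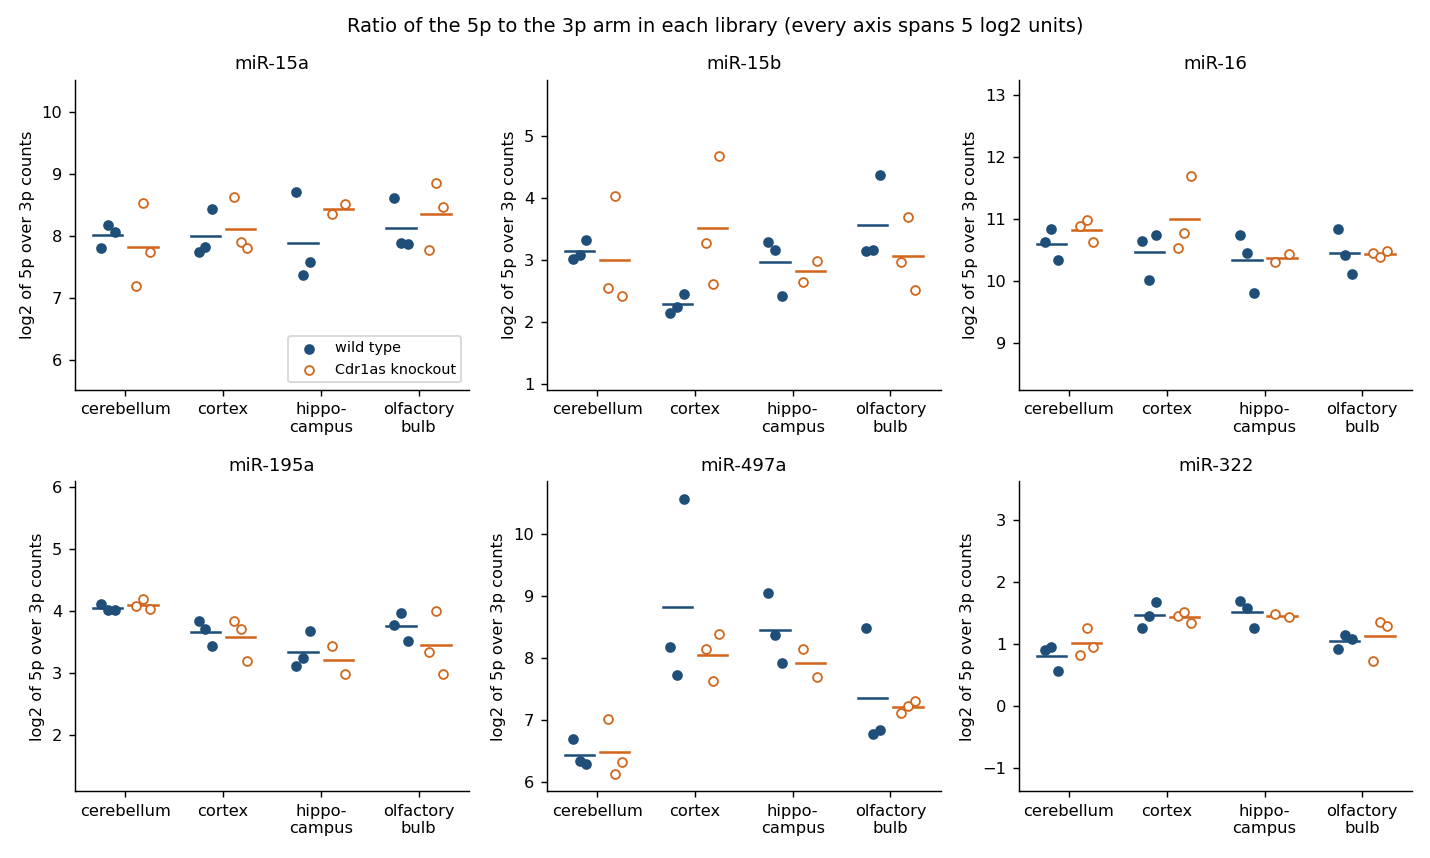
Log2 ratio of 5p to 3p read counts for each member in each library, by region, with every vertical axis spanning the same range; for miR-16 the 2 distinct 3p strands are summed. Filled circles are wild type, open circles Cdr1as knockout, bars group means; the miR-497a ratio is lowest in cerebellum, and the miR-322 ratio lies lower in cerebellum than in cortex.

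In the cortex, the miR-15b 5p to 3p ratio was 2.15 to 2.46 in wild type and 2.62 to 4.68 in knockout, a difference in means of 1.24 without overlap. The exact permutation p was 0.1, the smallest that 3 against 3 libraries allow, and the 3p counts behind it are at most 22 reads per library.

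The neighbours of miR-322 on chromosome X were largely scarce. Of 11 listed strands 6 passed the filter on low counts, and miR-503-5p, a related miRNA with a similar 5′ end, had 0 to 7 reads per library and was not tested. Of the 6 tested, 5 were lower in wild type cerebellum than in cortex, where 31.5% of all 669 miRNAs were. Among the 5 were miR-351-5p (59.2 ± 10.6 against 154 ± 9.15 CPM, log2 difference -1.38, edgeR adjusted p = 2.4e-07) and miR-542-3p (-1.06). The median of the 6 tested was -1.04, against 0.02 for all miRNAs. By genotype 0 of 6 were called in the mean over regions, where miR-351-5p was at 0.03.

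Other carriers of the seed contributed almost nothing. MiR-195b had 10 reads over all 23 libraries, at most 3 in any of them, and miR-6342, miR-6353 and miR-6419 had 0 reads in every library. A read count of 0 allows up to 3 reads per library, and such limits cover counting error only.

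The miR-17/92 cluster and its paralogs, which are known to promote proliferation, served as a contrast list. Of 12 strands 10 were tested, and 9 of these were lower in cortex than in olfactory bulb in wild type (median -1.21) and 9 lower in cerebellum than in olfactory bulb (median -1.21 likewise). Of all miRNAs 26.2% and 26.3% were lower in these pairs with TMM, which balances the 2 directions. With library size alone the median difference of all miRNAs was 0.84 and 0.28, against -0.06 and 0.07 with TMM. Between cerebellum and cortex 2 were higher and 2 lower (median 0.10), where the median of the 6 seed family members was 1.01. By genotype 0 of 10 were called in the mean over regions, with a median of -0.10.

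Markers of other cell types were read beside the cerebellum differences. Between wild type cerebellum and cortex, 31.1% of all 669 miRNAs were called higher in cerebellum and 31.5% lower. Of 5 red blood cell miRNAs, 2 were higher in wild type cerebellum than in cortex, miR-486a-5p and miR-486b-5p at 3.25 each, which share their reads. MiR-451a, the defining red cell miRNA, did not pass (0.30, SE 0.24, edgeR adjusted p = 0.28), nor did either strand of miR-144. The median difference of the 5 between cerebellum and cortex was 0.37. The summed red cell list, which includes both miR-486 entries, ran from 64019 to 94245 CPM in wild type cerebellum and 7170.5 to 10901 in cortex. It ran from 8464 to 11330.3 in hippocampus and 16070 to 20318 in olfactory bulb. Of the 4 endothelial and mural miRNAs 0 were called between cerebellum and cortex, with a median of 0.01 and sums of 19925 to 25825 and 20329 to 23954 CPM. Of 6 choroid plexus and ciliated epithelium miRNAs 5 were higher in cerebellum, with sums of 11176 to 18496 against 2068 to 3013 CPM in cortex. Of 3 neuronal miRNAs miR-124-3p (0.96) and miR-9-5p (0.77) were higher and miR-128-3p (-1.31) lower in cerebellum, with sums of 144076 to 173447 against 112236 to 117441 CPM. Of 4 oligodendrocyte miRNAs 2 were higher and 0 lower (median 0.39), with sums of 2097 to 2393 against 1491 to 1985 CPM. Of 6 microglia and leukocyte miRNAs 1 was higher and 2 were lower (median -0.26), with sums of 777 to 888 against 832 to 868 CPM. None of the markers in these 6 lists was at 0 in any group, and the part of these cell types in the cerebellum levels of miR-195a-5p and miR-497a-5p was not tested.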

How the data were processed

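Each library has its own table of raw read counts, deposited by the authors, with 1 row for each of 1915 mature miRNAs. Reads were placed on mm9, per the submitters' processing notes, and the labels' protocols name TRIZOL extraction and TruSeq Small RNA libraries. For the aligner, miRNA annotation, trimming and treatment of shared reads, the entry is not given in the sources used here. Mature sequences are RefSeq's (GRCm38.p6), matched by name for 6 of 6 members, and host genes come from GENCODE on GRCm38.

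The analysis used edgeR 4.0.16 (R 4.3.3): filterByExpr with 8 groups (minimum count 10, minimum total 15) kept 669 miRNAs with at least 99.988% of any library's reads, libraries were scaled by TMM, and 1 quasi-likelihood model with a mean per group was fitted to 23 libraries. F tests are two-sided, with Benjamini-Hochberg adjustment over the 669 and a threshold of 0.05. Ratios are log2 of counts plus 0.5. The code was tested on simulated counts. Alternatives were DESeq2 1.42.0, limma-voom (limma 3.58.1), other scalings, no filter, a pseudocount of 1, a replicate block, the region's libraries alone, and each library left out. The text names the 6 members, for each member the 2 miRNAs of at least 10 CPM most correlated with it over the groups, and up to 4 called strands of each list. MiR-15b's strand ratio in cortex was singled out after its values were seen. The members and lists were chosen with earlier results of these data known.

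Replicate numbers are shared between genotypes. In cerebellum the deviations of same-numbered wild type and knockout libraries correlated at 0.116, 0.374 and 0.103. All were above 0.1, so the numbers were treated as possible pairs there. Libraries with different numbers were not compared in this way, so these values do not establish a pairing. In no other region were all pairs above 0.1, though cortex replicate 2 (0.140) and olfactory bulb replicate 3 (0.139) were. Between regions, 6 of 18 same-numbered pairs in wild type and 4 of 15 in knockout were above 0.1. The main tests of region and of genotype treat these libraries as unpaired. Without molecular identifiers, PCR copies are counted as separate reads, so precision from read numbers covers counting error only. Libraries of a group were not duplicates of each other by a chi-square comparison of their counts.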

Additional observations from a re-analysis of the deposited data

How the results depend on the processing

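Of the 954 re-estimates of a member's genotype difference, 0 passed the threshold, and their changes of sign are not listed. Counts of members called moved under these alternatives. Library size alone lost miR-15a-5p and miR-16-5p between wild type cerebellum and cortex, and miR-15a-5p and miR-15b-5p between wild type cerebellum and hippocampus. In knockout it lost miR-15a-5p and miR-15b-5p in both of these pairs. With library size alone, 1 in place of 3 was called between wild type cortex and hippocampus, 3 in place of 6 (wild type) and 2 in place of 6 (knockout) between cortex and olfactory bulb, and 3 in place of 5 and 2 in place of 6 between hippocampus and olfactory bulb. With no filter on low counts, 1 was called between cortex and hippocampus in wild type (3 in the report) and 1 in knockout (0 in the report), as it was in knockout with upper quartile scaling. The 1 call without the filter was miR-497a-5p in both genotypes (-0.46 and -0.64), so the 3 wild type calls of the report were all lost, and so were miR-15b-5p between cerebellum and olfactory bulb (-0.33 in wild type, -0.52 in knockout) and, in knockout, miR-15b-5p between cerebellum and cortex (0.53) and miR-497a-5p between hippocampus and olfactory bulb (-0.47). Leaving out 1 library moved the wild type cortex and hippocampus count between 0 and 3. With library size alone, 7 differences called by it or by TMM changed direction: between cortex and olfactory bulb, miR-15a-5p (0.069), miR-16-5p (0.16) and miR-497a-5p (0.17) in wild type and miR-16-5p (0.13) in knockout; between hippocampus and olfactory bulb, miR-497a-5p (0.60 in wild type, where the TMM value of -0.32 was not called, and 0.17 in knockout); and miR-15b-5p between cerebellum and cortex in knockout (-0.0083). That scaling has no correction for composition. With it the median difference of all miRNAs was 0.84 and 0.92 in wild type for the first 2 pairs. With upper quartile scaling that median was 0.40 between wild type cerebellum and cortex. The miR-322-5p and miR-15b-5p calls between wild type cerebellum and olfactory bulb were lost with upper quartile scaling (-0.29 and -0.05), as in knockout (-0.21 and -0.23). So were miR-16-5p (0.097) and miR-322-5p (0.12) between wild type cortex and hippocampus and miR-497a-5p between knockout hippocampus and olfactory bulb (-0.45). Among all miRNAs, leaving out the filter gave 21 genotype calls in the mean over regions in place of 10, 12 in place of 1 in cerebellum, 20 in place of 0 in hippocampus, 4 in place of 1 in olfactory bulb and 31 in place of 11 for the difference between regions. In hippocampus DESeq2 gave 3 and limma-voom 2, in cerebellum DESeq2 gave 3, and limma-voom gave 4 for the difference between regions. A fit to the libraries of 1 region called 0 in cerebellum and 0 in olfactory bulb. With the replicate number as a block, 2 genotype calls were made in hippocampus, 2 members in place of 3 were called between wild type cortex and hippocampus, and no other member count changed. The block within the cerebellum alone, an alternative chosen after seeing the data, also called 0 members. Low reads of the 3p strands limit the strand ratios.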
